A study of Mus musculus with 8 samples.

Results

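The intergenic noncoding RNA probes are the probes whose description on this mouse expression array begins with the class name lincRNA, followed by a locus and a strand. They were 16251 of the 55681 gene probes (29.2%) and lay in 3555 loci on 20 chromosomes, 8199 against the forward and 8052 against the reverse strand. The design placed probes on both strands of 1067 loci (9682 probes) and on a single strand of 2488. Each probe is 60 bases long, a locus held between 1 and 20 probes with a median of 3, and the median locus spanned 7328 bases of the mm9 build. The class and the coordinates are those of the array design, which gives no exon or intron for a probe.

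The study compared resident microglia, sorted by green fluorescence (GFP), with invading macrophages, sorted by red fluorescence (RFP), from the brains of bone marrow chimeric C57BL/6 mice. All 4 animals, labelled A to D and numbered here as replicates 1 to 4, had 30 min of focal ischemia from occlusion of the middle cerebral artery (MCAo) and 7 days of reperfusion, with no further treatment. Each animal gave 1 sample of either kind, hybridised to a one-colour array, so that there were 8 arrays, 4 per group. Brains without ischemia and blood monocytes were not among the samples analysed here, and the sources used here do not give the age or sex of the mice, the promoters of the fluorescent markers or the share of host cells replaced. The groups therefore differ in sorting marker and cell type at the same time, and these cannot be told apart.

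A long intergenic noncoding RNA is a transcript that has no long reading frame and lies between protein-coding genes. Many, but not all, are spliced and polyadenylated like a messenger RNA. Some act in the nucleus as scaffolds, as NEAT1 does for paraspeckles, some silence genes on their own chromosome, as Xist does for an X chromosome, and many have no known role. Their expression is often more restricted to single cell types than that of messenger RNAs, and microglia and monocyte-derived macrophages, which arise from separate lineages, are set apart by transcription factors such as Sall1 in microglia.

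The sequences below are those of the probes the results turn on, 5′ to 3′, with mm9 coordinates. The first pair lies on opposite strands of the locus chr8:91569369-91594119, which had the most probes higher in microglia, and the capitals mark the 49 bases that the probes share as reverse complements.
Forward strand, chr8:91573566-91573625: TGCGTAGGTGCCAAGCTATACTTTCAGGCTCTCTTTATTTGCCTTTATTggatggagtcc
Reverse strand, chr8:91573555-91573614: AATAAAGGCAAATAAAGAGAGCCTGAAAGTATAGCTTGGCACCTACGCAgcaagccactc
The probe with the largest difference of all came from the same locus, and probes of compact loci on chromosomes 3 and 19 and of lincP21 are shown because they follow it in the results. None of these has capitals.
Locus on chromosome 8, chr8:91574375-91574434: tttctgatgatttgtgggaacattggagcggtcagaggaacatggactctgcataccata
Locus on chromosome 3, chr3:18521765-18521824: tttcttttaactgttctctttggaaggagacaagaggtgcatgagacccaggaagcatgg
Locus on chromosome 19, chr19:4210903-4210962: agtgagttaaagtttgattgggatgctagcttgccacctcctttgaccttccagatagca
The lincP21 probe, chr17:29194593-29194652: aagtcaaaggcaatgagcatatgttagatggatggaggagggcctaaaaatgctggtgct

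Several lincRNA probes shared a run of bases with a probe for a protein-coding gene, and the next pairs are printed because both probes of a pair gave close differences between the cell types. The capitals mark the shared run, of 45 bases with Anxa11 (same orientation), 33 with Tmsb10 and 32 with Rpl26 (both as reverse complements).
Locus chr14:26834450-26847000, probe chr14:26845986-26846045: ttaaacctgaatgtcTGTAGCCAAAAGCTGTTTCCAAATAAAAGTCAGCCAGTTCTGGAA
Anxa11 probe, chr14:26706231-26706290: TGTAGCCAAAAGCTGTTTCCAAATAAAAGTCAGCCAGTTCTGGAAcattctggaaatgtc
Locus chr15:77164450-77201325, probe chr15:77200489-77200548: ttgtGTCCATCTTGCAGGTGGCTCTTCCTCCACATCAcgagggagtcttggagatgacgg
Tmsb10 probe, chr6:72907492-72907550: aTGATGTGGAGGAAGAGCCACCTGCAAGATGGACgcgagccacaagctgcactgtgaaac
Locus chr4:13369325-13456750, probe chr4:13410155-13410214: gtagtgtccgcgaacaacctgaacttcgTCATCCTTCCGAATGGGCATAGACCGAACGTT
Rpl26 probe, chr11:68715893-68716688: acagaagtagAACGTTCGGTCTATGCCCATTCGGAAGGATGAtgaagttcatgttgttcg
The probe with the highest mean signal of the class is shown for its dinucleotide repeat, 18 bases in capitals.
Locus chr11:60728207-60745369, probe chr11:60731875-60731934: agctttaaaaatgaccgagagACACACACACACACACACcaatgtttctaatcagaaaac

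Levels are log2 signals relative to each array's 75th percentile, and differences are macrophages minus microglia, so that negative values are higher in microglia. A probe binds with its own efficiency, so a level is compared between arrays and not between probes as abundance. Over lincRNA probes, microglia arrays correlated with each other at 0.87 to 0.92 and macrophage replicates 1, 3 and 4 at 0.88 to 0.91, but macrophage replicate 2 correlated with the other macrophage arrays at only 0.80 to 0.83. The microglia markers summed to 9.78 to 10.14 in microglia and 7.50 to 8.90 in macrophages (log2), with 6 of 10 higher in microglia. Of the monocyte markers 6 of 10 were higher in macrophages, and their sums overlapped, at 9.80 to 10.19 and 9.75 to 10.51. Endothelial markers summed to 2.02 to 2.44 in microglia and to 3.57 to 5.97 in macrophages, but to 9.60 in macrophage replicate 2, with 4 of 9 tested higher in macrophages. Red blood cell markers summed to -3.68 to 0.48 in microglia and to 1.26 to 2.89 in macrophages, but to 7.65 in that replicate, with Slc4a1 below background everywhere. Astrocyte markers summed to 3.63 to 3.83 in microglia and 0.76 to 2.45 in macrophages, T and natural killer cell markers to -1.22 to -0.62 and -0.12 to 3.50, and neutrophil markers to 3.55 to 4.83 and 4.10 to 6.59, with the highest value of each macrophage range in replicate 2. Of 5 astrocyte markers tested, 1 was higher in macrophages and 1 in microglia. Of 3 T and natural killer cell markers tested, 1 was higher in macrophages, and of 3 neutrophil markers 0 differed in either direction. The part of these cells in the differences below was not tested, and counts are given with and without macrophage replicate 2. In sorted bulk samples, fewer cells that make a transcript and less of it per cell cannot be told apart.

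The share of lincRNA probes detected overlapped between the groups. In microglia replicates 1 to 4, 43.0%, 45.6%, 51.8% and 45.2% of the lincRNA probes were well above background, and in macrophage replicates 1 to 4, 35.6%, 49.0%, 43.9% and 42.7%. The groups overlapped, at 46.4% ± 3.79 and 42.8% ± 5.49 (SD, n = 4 each), and the share was lower in macrophages in 3 of 4 animals. The other gene probes were detected more often, at 53.6% to 59.2% in microglia and 49.8% to 60.1% in macrophages. Of the lincRNA probes, 5326 (32.8%) were well above background on no array and 4459 (27.4%) on all 8, whereas 28.1% of the other probes were on none and 42.7% on all. By locus, 1538 of 3555 had a probe detected on every array and 543 had none detected on any.

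The median level of the 7397 lincRNA probes tested, those well above background on at least 4 arrays, was lower in macrophages. It was -1.14, -1.10, -1.04 and -1.10 in microglia replicates 1 to 4 and -1.42, -1.41, -1.35 and -1.37 in macrophage replicates 1 to 4. The groups did not overlap, and the difference of -0.29 between means of -1.09 ± 0.04 and -1.39 ± 0.03 (SD, n = 4 each) had the same sign in 4 of 4 animals. The other tested probes had medians of 0.18 ± 0.02 in microglia and 0.21 ± 0.07 in macrophages. Among the 4459 lincRNA probes detected on all arrays the difference was smaller, -0.13, and the groups overlapped, at -0.07 to 0.10 and -0.17 to -0.04. Probe by probe, the median difference was -0.18 for lincRNA probes and 0.05 for the others, and 59.3% against 46.9% of probes were lower in macrophages. With arrays centred on their median the lincRNA median difference turned to 0.02, but that of all probes rose with it, from 0.00 to 0.20.

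**Figure D1:**
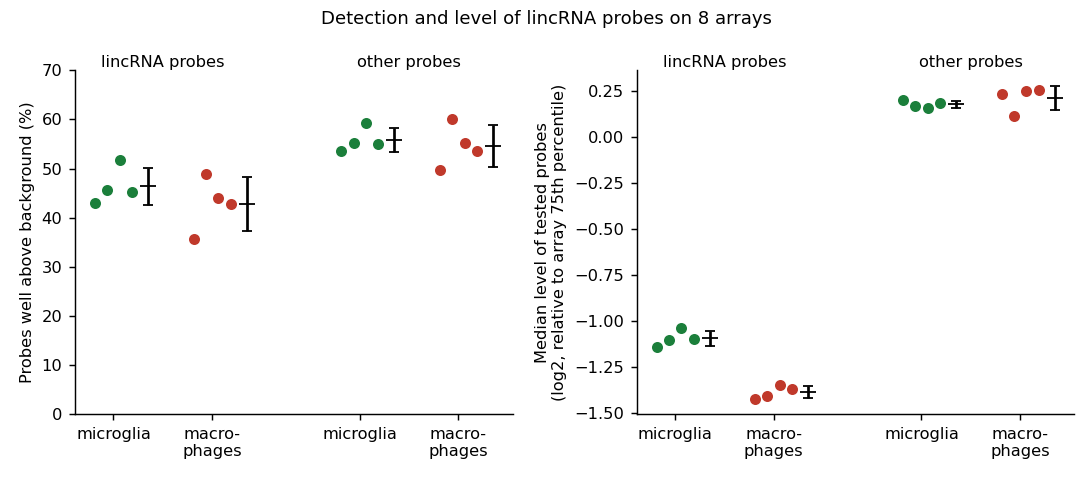
Each point is 1 array, green for microglia and red for macrophages, with the mean and SD of 4 arrays beside it. The left panel gives the percentage of probes well above background, where the lincRNA groups overlap (46.4% and 42.8%), and the right panel the median log2 level of tested probes relative to the array's 75th percentile, where they do not (-1.09 and -1.39).

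Among the 5 probes with the highest signals no difference passed the test. The probe at chr11:60731875-60731934, with the dinucleotide repeat printed above, read 8.45, 7.99, 8.12 and 8.35 in microglia and 8.60, 8.24, 8.07 and 8.18 in macrophages, a difference of 0.04 ± 0.23 (SE) with an adjusted p of 0.929 in limma; its sign turned under 3 of the other normalizations and 3 fits on fewer arrays. The motif ACACACACAC, on either strand, occurred in 36 of the 16251 probes (0.222%) and in 5 of the 50 with the highest signal (10%). Of those 36 probes 28 were detected on all arrays and 0 were called. The probe at chr4:13410155-13410214, which shares 32 bases with the probe for Rpl26, a ribosomal protein, differed by 0.28 ± 0.26 (adjusted p = 0.56), and that Rpl26 probe by 0.28 (adjusted p = 0.568).

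At chr19:5801802-5802597 on the reverse strand, inside the stretch that the design names NEAT2 and that holds Malat1, a nuclear speckle RNA, 3 probes differed by 0.14 to 0.17, all short of the threshold. The probe at chr19:5802130-5802189 read 7.83 to 8.23 in microglia and 8.02 to 8.71 in macrophages, and the probe at chr19:5802191-5802250 read 7.75 to 7.99 and 7.81 to 8.54. The groups overlapped for both, and both differences changed sign without macrophage replicate 1, to -0.0092 and -0.04. A probe of the interferon-inducible gene Ifi207 lies inside the locus chr1:175654606-175672031, and probes of the related Ifi204 and Ifi208 within 50 kb of it. All 10 lincRNA probes of this locus were 0.70 to 1.34 higher in macrophages and none passed the threshold. Its brightest probe read 7.82, 7.10, 7.63 and 7.76 in microglia and 9.07, 7.43, 8.58 and 8.50 in macrophages, where replicate 2 was the lowest. Without replicate 2 all 10 probes were called. In the full data the Ifi207 probe inside the locus differed by 1.35 (adjusted p = 0.122) and an Ifi208 probe by 1.88 (adjusted p = 0.00989). The remaining probes of Ifi207, Ifi204 and Ifi208 differed by 0.66 to 1.54 and did not pass.

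Probes on opposite strands of the same stretch gave similar differences between the cell types, though less close than probes on the same strand. In 100 pairs covering the same 60 bases on either strand, the mean levels correlated at 0.90 across pairs, with a median gap of 0.51 (log2). Over the 37 of these pairs with both probes tested the correlation was 0.84. In 1675 opposite-strand pairs starting under 30 bases apart, 636 had both probes tested and 270 only 1. In the 636 pairs the differences between the cell types correlated at 0.91, with a median gap of 0.22. In 38 of these 636 pairs both probes were called in the same direction, in 20 only 1 was called, and in 0 were they called in opposite directions. Pairs on the same strand under 30 bases apart had differences that correlated at 0.93 over 173 pairs, with a median gap of 0.10. Between probes of a locus 1000 bases or more apart the correlation was 0.61 on the same strand and 0.63 on opposite strands. These correlations are across probe pairs that share arrays and loci and are descriptions only. The labelling protocol is undisclosed per the labels, so these probes were not used to say which strand was transcribed, and forward and reverse below name the probe and not the transcript.

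**Figure D2:**
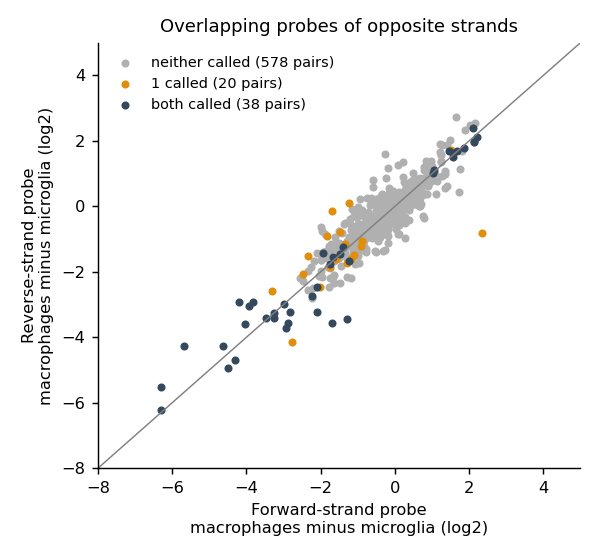
Each point is a pair of tested lincRNA probes on opposite strands that start under 30 bases apart, with the log2 difference, macrophages minus microglia, of the forward probe on the x axis and of the reverse probe on the y axis. The 636 pairs lie along the line of equal values (r = 0.91), with 38 pairs called on both strands, 20 on 1 strand and the rest on neither.

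Between the cell types, more lincRNA probes were called higher in microglia than in macrophages, but the counts were close among probes detected on every array. At an adjusted p under 0.05 in limma, with Benjamini-Hochberg adjustment over all 29357 probes tested, 351 lincRNA probes in 171 loci were higher in microglia, 4.75% of those tested, where 4.11% of all tested probes were. Higher in macrophages were 135 probes in 54 loci, 1.83%, where 2.34% of all tested probes were. Both shares are near the background, and 1729 lincRNA probes had an unadjusted p under 0.05. The median difference of the called probes was -2.74 for those higher in microglia and 1.62 for those higher in macrophages, and 140 and 6 probes passed 8-fold, where 353 of 855 and 100 of 553 of the other called probes did. Among the 4459 lincRNA probes detected on all 8 arrays, 138 were higher in microglia and 113 in macrophages, where 2.6% and 2.48% of all probes detected on all 8 were. The remaining calls lay in probes that some arrays did not measure above background, among them the 96 that were above it on no macrophage array and entered the test through the microglia arrays.

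These counts depended on single arrays. Without macrophage replicate 2 they rose to 580 and 360, of which 339 and 133 were among the calls of the full data, and the shares of all tested probes rose to 6.83% and 7.14%. They came to 198 and 62 without microglia replicate 2, 206 and 77 without replicate 3, and 203 and 73 without replicate 4, and the macrophage count to 78 without macrophage replicate 1 and 75 without replicate 3. In all 8 such fits 175 and 42 probes were called. Apart from the fit without macrophage replicate 2, the shares of all tested probes are not given for these fits. Whether the lower counts were particular to lincRNA probes was therefore not tested. When animals were blocked, 207 and 58 probes were called, with 2.5% and 1.2% of all tested probes. Probes called higher in macrophages made up 27.8% of the calls. This was 42.5% when arrays were centred on the median and 17.6% when the percentile used only probes found on every array. Of all tested probes, 2.34% were called higher in macrophages and 4.11% in microglia. With the median these shares were 3.63% and 3.19%, and with that percentile 2.05% and 6.04%. The change was thus not particular to lincRNA probes.

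The probes found in a single cell type were mostly those of microglia. On all 4 microglia arrays and no macrophage array, 103 probes in 63 loci were well above background (0.634% of lincRNA probes, against 0.454% of the others), and 96 of them were called. In the opposite pattern there were 8 probes in 8 loci (0.0492%, against 0.160%), of which 7 were called. Either set entered the test only through the group in which it was detected, so these calls are no separate support for a difference. Without macrophage replicate 2 the probes found in a single cell type numbered 181 for microglia and 13 for macrophages. With fewer macrophage arrays to meet the condition these counts cannot fall, so their rise is no measure of that replicate.

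The locus with the most probes higher in microglia was chr8:91569369-91594119, with 10 probes on each strand. All 20 were tested, and 19 were called with differences of -7.83 to -3.14. The forward probe at chr8:91574375-91574434 read 4.08, 4.43, 3.95 and 4.80 in microglia and -4.95, -2.39, -5.24 and -1.48 in macrophages, and was well above background on 2 of 4 macrophage arrays. It was at least 126-fold higher in microglia (-7.83 ± 0.82 SE, adjusted p = 0.000959), and the groups were far apart on every array. A bound of this kind sets the bright group against the lowest signal well above background on the dim arrays.

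On the reverse strand of that locus, the probe at chr8:91572106-91572165 read 1.37 to 2.24 in microglia and -6.15 to -5.24 in macrophages, with none of the latter above background. It was at least 45.2-fold higher in microglia (-7.66 ± 0.30, adjusted p = 1.26e-05). The reverse probe at chr8:91570050-91570109 was at least 60.6-fold higher and the forward probe of the printed pair at least 30.1-fold, both with no macrophage array above background. The exception was the reverse probe at chr8:91571897-91571956, detected on all arrays at 2.47 to 2.85 in microglia and 1.84 to 2.13 in macrophages (-0.72 ± 0.21, adjusted p = 0.0829). The nested locus chr8:91571643-91576878 had both its probes called, the first at least 23.6-fold higher in microglia (-6.22 ± 0.42, adjusted p = 9.16e-05).

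Sall1, the transcription factor gene 18032 bases from this locus, had a difference of -8.50 (adjusted p = 5.25e-05), with 4.19 ± 0.25 in microglia and -4.32 ± 1.13 in macrophages (SD, n = 4). Gm3134, whose probe lies inside the locus, had a difference of -6.31 (adjusted p = 5.25e-05). The 19 probes, Gm3134 and Sall1 were thus all higher in microglia. Over the 8 arrays, the named genes whose levels were most like the forward probe's were Hpgd (r = 0.996), Siglech and Anxa3, and those most like the reverse probe's were Gm3317, Nav3 and Crybb1 (r = 0.999 each), as a description.

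**Figure D3:**
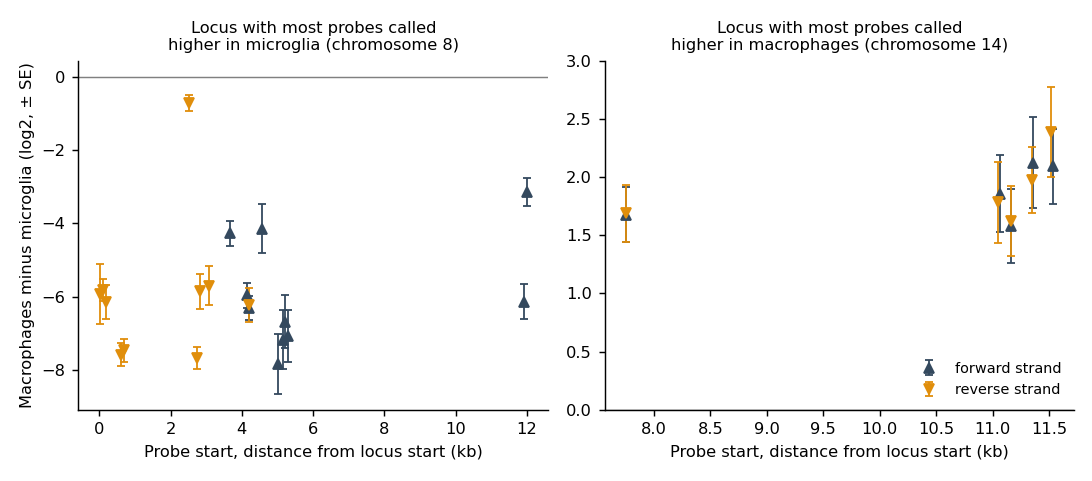
Each triangle is 1 tested probe, upward on the forward and downward on the reverse strand, at its distance in kb from the start of its locus (x axis) and with its log2 difference, macrophages minus microglia, ± SE (y axis). In the chromosome 8 locus 19 of 20 probes lie between -7.83 and -3.14 and 1 at -0.72, and in the chromosome 14 locus all 10 lie between 1.58 and 2.39.

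Compact loci gave the next largest differences. At chr3:18521534-18522194 all 3 probes were called, at -6.92 to -5.72. The printed probe read 2.0, 1.64, 1.35 and 1.67 in microglia and -5.15, -6.40, -3.64 and -5.82 in macrophages, at least 40.6-fold (adjusted p = 0.00021), with no macrophage array above background. Its levels were most like those of Tspan7 (r = 0.999), Gm10790 and Cfap74 over the 8 arrays.

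At chr19:4210704-4211111 all 3 probes were called, at -6.76 to -5.60. The printed probe read 0.74 to 1.14 in microglia and -6.45 to -5.06 in macrophages, at least 25.5-fold, and the probe at chr19:4210765-4210824 was at least 46.7-fold higher in microglia (-6.52 ± 0.56, adjusted p = 0.000316). Clcf1, a cytokine gene of the interleukin 6 family 11369 bases away, was also higher in microglia, by -3.68 (adjusted p = 0.0329, but 0.0913 with the animal as a block). Rad9a, Ppp1ca, Pold4, Tbc1d10c, 1500032F14Rik and Carns1, also near it, had differences of -0.69 to 0.93 that did not pass.

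At chr2:36112429-36112792 the 3 probes were called at -5.06 to -3.95, the first reading 1.47, 2.39, 2.26 and 2.45 in microglia and -4.42, -3.77, -2.27 and -1.25 in macrophages, at least 26.3-fold with 3 macrophage arrays above background. Ptgs1, which encodes cyclooxygenase 1 and lies 4726 bases away, had a difference of -3.52 (adjusted p = 0.00126). At chrX:11671249-11671715 2 of 3 probes were called, at -5.68 and -4.54, the first at least 13-fold. The nearest gene with a tested probe was Bcor, a transcriptional corepressor 39865 bases away, at -3.25 (adjusted p = 0.00247).

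At chr6:125330524-125410249 2 of 6 tested probes were called, and they cover nearly the same bases on opposite strands. The forward one was at least 16.7-fold higher in microglia (-6.30 ± 0.31) and the reverse one at least 23.2-fold (-5.51 ± 0.27), with no macrophage array above background. Near this locus Cd9, a tetraspanin gene, had a difference of -0.86 (adjusted p = 0.198), and Plekhg6 and Tnfrsf1a did not pass either, at -1.71 to -0.53.

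Among loci with many called probes, chr17:38132217-38157667 had 9 of 9 tested probes called at -5.67 to -2.80, the first at least 11-fold, and 8 further probes not tested. The only genes with probes within 50 kb were the olfactory receptors Olfr129, Olfr130 and Olfr761, none of them tested. At chr3:126989696-127112471 8 of 11 tested probes were called at -4.92 to -1.97, and none of the other 3 had a positive difference. At chr2:168804720-168854970 4 of 6 probes were called at -4.68 to -1.28, whereas the overlapping pair nearest its start was at 3.18 to 3.64 in both cell types (0.22 and 0.25, adjusted p = 0.738 and 0.706). At chr5:125190100-125209625 9 of 15 probes were called at -1.90 to -1.22, but 1 with the animal as a block. A probe of the ciliary dynein gene Dnah10, 47994 bases from this locus, had a difference of -1.93 (adjusted p = 0.0362). The Dnah10 probe 3200 bases away was above background on 0 arrays. The Atp6v0a2 probe, inside the locus, differed by -0.91 (adjusted p = 0.0925).

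The locus chr17:29183003-29217681 and the lincP21 transcript that the design places inside it were higher in microglia along with Cdkn1a, which encodes the cell-cycle inhibitor p21. At the former 9 of 10 probes were called, at -5.05 to -2.75. All 5 lincP21 probes were called, at -3.38 to -1.52. The printed lincP21 probe read 1.70, 1.76, 1.79 and 1.61 in microglia and -0.11, -0.48, -0.31 and -1.75 in macrophages, 5.20-fold higher in microglia (-2.38 ± 0.36, adjusted p = 0.00687; 0.0292 when animals were blocked). All 4 microglia arrays were above all 4 macrophage arrays. The 3 Cdkn1a probes had differences of -3.30 (adjusted p = 0.0129), -1.58 (0.076) and -1.67 (0.00594), of which the first did not pass with the animal as a block (adjusted p = 0.0535). The 3 probes of Srsf3, a splicing factor gene on the other side, had differences of 0.27 to 0.68 and did not pass.

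A single locus, chr13:112337405-112356455, held probes called in both directions. Its forward probe starting at 112351036 was at -1.66 ± 0.28 in microglia and -5.58 ± 0.52 in macrophages (-3.92, adjusted p = 0.000216), and the overlapping reverse probe differed by -3.04 (adjusted p = 0.0014). The forward probe starting at 112351360 was at -4.33 ± 0.32 and -1.99 ± 0.57 (2.34, adjusted p = 0.00447), while the reverse probe that overlaps it differed by -0.81 (adjusted p = 0.207).

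Higher in macrophages, 2 probes shared the largest difference, 4.29. At chr8:123571640-123607481, 1 of 10 probes was tested. The Fendrr probe inside this locus and the Foxf1 probes 3200 and 4463 bases from it did not pass the filter. It read -5.53, -5.53, -6.39 and -4.48 in microglia, none of them above background, and -2.38, 1.73, -1.44 and -2.67 in macrophages, where replicate 2 was by far the highest. The difference of 4.29 ± 0.92 had an adjusted p of 0.0292 (0.0745 when animals were blocked); without macrophage replicate 2 it was 3.32 (adjusted p = 0.00596). The fold was at least 5.75 over all 4 macrophage arrays and at least 2.93 without that replicate. Nfib (r = 0.996), Gpd2 and Specc1l had the levels most like it. The endothelial markers given above were also highest in that replicate, and their part in this difference was not tested.

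At chr1:81657350-81765250 all 5 probes were called, at 1.44 to 4.29, and 3 when animals were blocked. The first read -1.56, -3.46, -0.94 and -3.77 in microglia and 1.84, 2.16, 1.60 and 1.82 in macrophages, at least 19-fold higher (4.29 ± 0.62, adjusted p = 0.00496). The macrophage arrays lay close together and the microglia arrays were spread. The levels most like it were those of Capn2 (r = 0.982), a calpain gene, Gm9706 and Septin9. At chr13:98281158-98285757 all 3 probes were called, at 2.20 to 3.49, the first at least 9.38-fold, and Gm2379, whose probe lies inside the locus, had a difference of 2.42 (adjusted p = 0.029; 0.074 when animals were blocked). In that blocked fit 2 of the 3 probes were called. Here Nudcd1, Itgal, an integrin gene of leukocytes, and Bnip2 were most alike (r = 0.97 each).

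At chr15:5446265-5544984 the only probe read 0.07, -2.21, -0.33 and -1.04 in microglia and 2.19, 1.08, 3.03 and 1.68 in macrophages, 7.32-fold higher (2.87 ± 0.57, adjusted p = 0.0217). The noncoding gene 5430437J10Rik, with a probe inside that locus, had a difference of 4.39 (adjusted p = 0.0035). At chr17:21177225-21187525 4 of 5 probes were called, and 0 in the blocked fit, the first 6.51-fold higher (2.70 ± 0.63, adjusted p = 0.0394; 0.0994 when animals were blocked). At chr1:161973754-162006639 3 of 5 were called, and 0 in the blocked fit, the first at least 4.84-fold higher (2.78 ± 0.60, adjusted p = 0.0306; 0.0788 when blocked). At chr6:134875724-134931975 the groups overlapped and 1 of 3 tested probes was called (2.74 ± 0.64, adjusted p = 0.0393, but 0.0505 without macrophage replicate 2).

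The brightest probes found on all macrophage and no microglia arrays, besides the one near Foxf1, lay in 4 loci. At chr5:150921318-150927422 both tested probes were called, but 1 when animals were blocked, the first at least 5.11-fold higher with a difference of 3.33 ± 0.40 (adjusted p = 0.00213). The probe at chrX:18810088-18814982 differed by 3.38 ± 0.61 (at least 3.43-fold; adjusted p = 0.0147). At chr4:114585803-114588898 the probe was at least 3.46-fold higher (2.79 ± 0.57, adjusted p = 0.0238; 0.0694 when blocked), and the Foxd2os probe with the same 60 bases had a difference of 2.12 (adjusted p = 0.11). At chr6:129151512-129208737 1 of 14 tested probes was called, at least 3.21-fold higher (2.22 ± 0.39, adjusted p = 0.0124), near Cd69 at 0.92 (adjusted p = 0.19).

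Of the 5 loci with the most probes higher in macrophages, 4 held a probe that shares bases with a gene probe. At chr14:26834450-26847000 all 10 probes were called, at 1.58 to 2.39, and at chr14:26973425-26986650 all 6, at 1.07 to 2.30. In the fit blocked by animal 5 and 3 of them were called. The printed probe of the former differed by 2.09 ± 0.33 (adjusted p = 0.00753). The Anxa11 probe with which it shares 45 bases, for an annexin that binds membranes in a calcium-dependent way, was at -2.04 ± 0.75 in microglia and 0.38 ± 0.18 in macrophages (SD, n = 4), a difference of 2.42 (adjusted p = 0.00711). The 2 loci share runs of at least 25 bases with each other through 4 probes each, so they are not independent.

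At chr14:22267795-22319045 8 of 10 tested probes were called, at 1.30 to 2.23, and 6 when animals were blocked. All 8 lack coordinates of their own in the files, and the 2 tested probes that have them did not pass, at 0.11 and 0.24 (adjusted p = 0.827 and 0.512). The adenosine kinase gene Adk lies beside it, and a probe of the locus shares 47 bases with the Adk probe as a reverse complement. The former differed by 2.01 ± 0.21 (adjusted p = 0.00105) and the latter by 2.04 (adjusted p = 0.00608). At chr15:77164450-77201325 all 6 probes were called, at 1.29 to 1.75, and 4 with the block. The printed probe there differed by 1.61 ± 0.27 (adjusted p = 0.00969), and the probe for Tmsb10, an actin-binding thymosin encoded on chromosome 6, by 1.68 (adjusted p = 0.00786). At chr18:6144775-6202105 7 of 10 probes were called, at 1.02 to 1.22, but 0 when animals were blocked, and the kinesin gene Kif5b beside it had a difference of 1.18 (adjusted p = 0.0268; 0.0634 when animals were blocked).

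Across the class, 366 lincRNA probes shared at least 25 bases with a gene probe, and in the 257 pairs with both tested the differences correlated at 0.945, with a median gap of 0.09. Of the called lincRNA probes 14 were among them, 10 of them higher in macrophages. The gene probe was tested for 13 and had the same sign in 13 and the same call in 9. Counting also runs shared with a lincRNA probe of a separate locus, 28 of the 135 probes higher in macrophages and 5 of the 351 higher in microglia shared bases. With all such probes left out, the counts were lower by these 28 and 5.

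Examples of called probes with a gene partner were those at chr17:32213027-32228368, at 2.20 and 1.81, with Pdxk, pyridoxal kinase on chromosome 10, at 2.38 and 1.72. The probe at chr14:77006215-77063293 was at 1.34 and its partner Fkbp1a, an FK506-binding protein on chromosome 2, at 1.44. Higher in microglia, the probe at chr15:62046023-62082530 was at -1.26 and the Pvt1 probe with the same 60 bases at -1.04. These pairs were chosen after their values were seen. Whether the full 60 bases of a probe occur elsewhere in the genome was not checked, since no genome was used.

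The design gives a name to 12 noncoding RNAs, and lincP21 was the only one of them with all its probes called. The 5 NEAT1 probes were 0.61 to 0.83 higher in macrophages and did not pass, with a lowest adjusted p of 0.08. The brightest read 6.38, 6.20, 6.03 and 5.59 in microglia and 6.79, 6.48, 6.63 and 6.74 in macrophages, with no overlap. TUG1 was at -0.54 to -0.46 over 5 probes, NEAT2 at -1.0 to -0.07 over 3 and KCNQ1ot1, an imprinted antisense RNA, at -1.46 to 0.08 over 5, and none passed.

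NRON, a noncoding repressor of the factor NFAT, had 2 of 5 probes tested. The probe at chr2:33668706-33668765 read -0.75, -1.79, -2.51 and -2.78 in microglia and -3.88, -6.13, -3.85 and -5.04 in macrophages (-2.77 ± 0.62, adjusted p = 0.0345; 0.0582 when animals were blocked), and the other differed by -2.95 (adjusted p = 0.0589). The 5 XIST probes were at -4.29 to -3.54 and did not pass, with a wide spread between animals in either cell type. The brightest read 5.01, 2.43, -4.51 and 4.64 in microglia and -2.39, 0.91, -4.92 and -0.81 in macrophages, lowest in animal C in both cell types (adjusted p = 0.33). No probe of HOTAIR, PINC, TSIX, H19 or BRN1-A was tested.

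**Figure D4:**
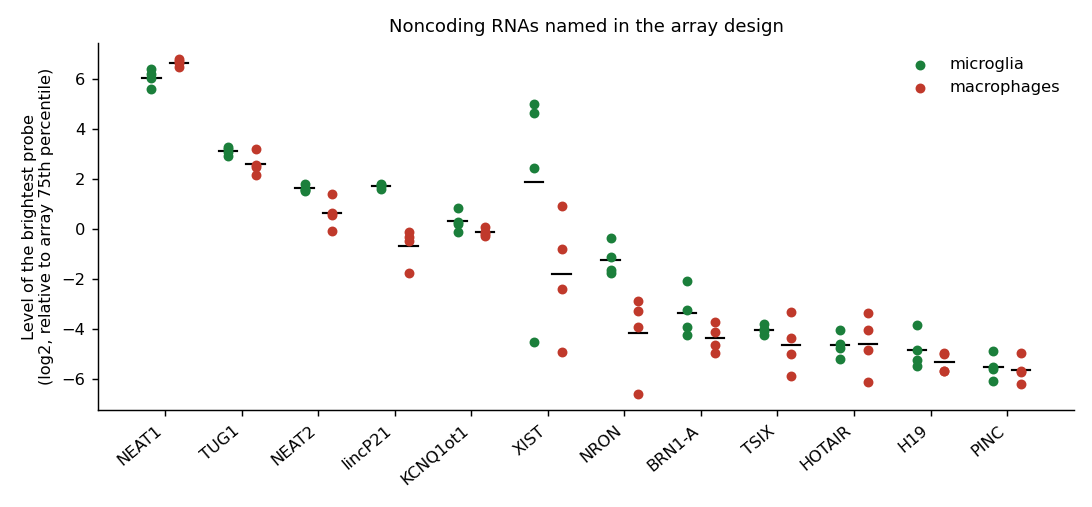
Each point is 1 array, green for microglia and red for macrophages, and each bar the mean of 4, for the probe with the highest mean of each noncoding RNA that the array design names, as log2 level relative to the array's 75th percentile. lincP21 is higher on all microglia arrays (-2.38), NEAT1 lies between 5.59 and 6.79 on all 8, and XIST is lowest in animal C in both groups.

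Long noncoding RNAs that the array also holds under a gene symbol were described from a separate list. Of a list of 57, 45 were on the array and 30 tested, and their median difference was -0.13, where that of all tested probes was 0.00. With the brightest tested probe standing for each, none was called higher in macrophages, where 2.34% of all tested probes were, and 1 higher in microglia, where 4.11% were. This was Pvt1, a neighbour of Myc (-1.72 ± 0.38, adjusted p = 0.0319; 0.1 when animals were blocked). Another probe of Dleu2 was called higher in microglia (-2.53, adjusted p = 0.0184), while the one standing for it differed by 0.26 (adjusted p = 0.67).

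Probes of a locus often moved in the same direction but seldom all passed. Of the 1127 sets of at least 3 tested probes of a locus and strand, 676 had differences of a single sign. The median SD within a set was 0.36, and the SD over all tested lincRNA probes was 1.06. The latter takes in the few very large differences, so these SDs are unlike measures and their gap does not measure how far probes moved together. Of 185 loci with a called probe and at least 2 tested, 35 had every tested probe called, and 120 loci had a single called probe. At least 3 probes were called in 40 loci higher in microglia and 17 higher in macrophages, and 40 loci had called probes on both strands. With tested probes of a locus and strand averaged first, 156 sets were higher in microglia and 48 in macrophages. The shares of all tested probes are not given for that fit.

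Genes near the called loci were called more often in the same direction. Of 132 loci higher in microglia with a tested named gene probe within 50 kb, 36 (27.3%) had one called higher in microglia and 3 one called higher in macrophages. Of 35 loci higher in macrophages, 9 (25.7%) had a neighbour called higher in macrophages and 1 the reverse. Among 1349 loci with tested but no called probes, 81 (6.00%) had a neighbour higher in microglia and 60 (4.45%) one higher in macrophages. These counts are descriptions, without a test, and include neighbours whose probes share bases with the locus. Overlapping loci are counted each, so a gene near them, such as Sall1, counts more than once.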

How the data were processed

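RNA was column-extracted, and cDNA from bead-isolated mRNA was amplified by a global PCR (SuperAmp) and labelled with Cy3 by an undisclosed protocol, per the labels' protocols. This can change the proportions of transcripts. Per the file headers, Agilent Feature Extraction 10.7.3.1 gave the processed signal, a background-subtracted intensity that the authors deposited for each array. The deposited table of log2 values (column medians 4.604 to 4.606, correlation with the own array 0.9985 to 0.9999 over probes) served as an alternative; its centring is not given in the sources used here. The arrays lay on 2 slides, with 5 and 3 arrays.

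Control spots and outlier flags were left out, spots of a probe were averaged, log2 was taken and each array's 75th percentile subtracted. Probes well above background on at least 4 of 8 arrays (29357 of 55681) were compared with lmFit and eBayes of limma 3.58.1 (R 4.3.3). Tests were two-sided and p-values adjusted by Benjamini and Hochberg over all of these probes; the script was tested on simulated data. Tables were prepared with Python 3.11.15 and pandas 2.3.3. A fold bound takes the bright group's mean over the dim group's mean after its signals were raised, where lower, to the smallest signal well above background on their array. Gene probes were named through RefSeq accessions (27598 probes), symbols (3488) or synonyms (393). The number of arrays limits the precision.

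Named were the 10 probes with the largest difference in each direction among those called and alike in all animals, the 5 brightest, the 5 loci with the most calls in each direction, the 5 brightest probes found in a single group, 4 loci with the widest spans, the neighbours within 50 kb of these, and the noncoding RNAs the design names. The members and lists were chosen with earlier results of these data known. The labels name the same animal for 1 sample of each group, which pairs the samples and is numbered here as the replicate; deviations of arrays from the same animal correlated over lincRNA probes at 0.0123, 0.0566, 0.0698 and -0.0403, and the animal entered as a block in an alternative. Other alternatives changed the centring, background correction, normalization, filter, slide and arrays used.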

Additional observations from a re-analysis of the deposited data

Results flagged for a closer look

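In 3 of 76 groups of 4 arrays examined over the named probes, 1 array stood apart from the rest by Dixon's criterion, which chance meets in about 1 in 20 groups. All were macrophage replicate 1 as the highest array. The reverse probe at chr8:91572106-91572165 read -5.24 there, where the next array read -6.04, below background on all of them. The probe at chr19:5802130-5802189 read 8.71, where the next read 8.08, and the probe at chr19:5802191-5802250 read 8.54, where the next read 7.87.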

How the results depend on the processing

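Counts are given as probes higher in macrophages, probes higher in microglia and loci, and were 135, 351 and 224 in the full data. With the animal as a replicate block they were 58, 207 and 133, of which 52 and 191 probes were among the calls of the full data. Leaving out 1 array at a time gave 62 to 360, 198 to 580 and 130 to 426. Within the slide of 5 arrays they were 2, 53 and 30, and within that of 3 arrays 0, 12 and 3 (fewer arrays; added after seeing the data). With no filter on dim probes 82 were higher in macrophages, and with probes averaged by locus and strand 48 and 156 sets passed. The difference in median level, -0.29, was -0.0864 with median centring, -0.451 with the percentile over probes detected on all arrays, -0.167 with normexp, -0.193 with quantile normalization and with the deposited log2 table, -0.332 with no filter and -0.126 over probes detected on all 8 arrays (added after seeing the data), and -0.308 to -0.274 with 1 array left out. The difference in the share detected, -3.62 percentage points, was -5.67 to -1.23 with 1 array left out.

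The cause of these shifts was not tested. Uncalled bright probes changed sign. The repeat probe on chromosome 11, at 0.04, went to -0.114 with the percentile over probes detected on all arrays, -0.0325 with quantile normalization or the deposited table, -0.0735 within the larger slide and -0.0653 to 0.119 with 1 array left out. The probes at chr19:5802130-5802189 and chr19:5802191-5802250 went to -0.00244 and -0.0233 with that percentile, and the second to -0.0164 within the larger slide; with 1 array left out they ranged from -0.00923 to 0.221 and from -0.0384 to 0.205. No called named probe changed sign. The call was lost in 37 of 200 fits with 1 array left out and in 18 of 224 other alternatives. Calls were also lost in the 50 fits within a slide. Nearly all of these probes had groups that did not overlap, so leaving out arrays could not turn their sign. The lack of a change is therefore no separate support. Signal over background limits the low probes: 96 of the 351 probes higher in microglia were above background on no macrophage array.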

Other observations

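The calls were spread unevenly over chromosomes. On chromosome 14, 35 of 356 tested lincRNA probes (9.83%), in 8 loci, were called higher in macrophages, where 1.87% of the other probes there were; 10, 8 and 6 of the 35 lay in 3 of the loci described above, which hold probes that share bases with gene probes or with each other. On chromosome 3, 35 of 315 (11.1%), in 14 loci, were called higher in microglia, where 3.7% of the other probes there were. Probes of a locus are not independent of each other, so these shares are given without a test.

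GC content hardly varied with the calls. The median was 45% in lincRNA probes and 41.7% in the others, and 45% among lincRNA probes called in either direction, and across tested lincRNA probes GC content and mean level correlated at 0.015. The loci with a probe higher in macrophages had a median length of 17864 bases, those with a probe higher in microglia 11976 and all tested loci 10826.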
